A study of Mus musculus with 23 samples.

Results

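The genes described here are those that make, or choose the sites of, the programmed DNA double-strand breaks that start meiotic recombination: Spo11, Prdm9, Mei1, Mei4 and Rec114. They were chosen by name for this function, and every probe set that the platform annotation assigns to exactly 1 of these symbols was used. This gave 6 probe sets for 5 genes, of 34945 such probe sets for 18193 genes on the array. Spo11 (1417021_a_at), Prdm9 (1426107_at), Mei1 (1429929_at) and Mei4 (1437935_at) had 1 probe set each. Rec114 had a pair, 1429203_at and 1441957_x_at. The ending x_at marks a probe set that may bind other transcripts as well.

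RNA of male germ cells was measured on 23 Affymetrix mouse arrays. Testis cells carried the DNA dye Hoechst 33342 for sorting by flow cytometry, and all mice were 10 to 16 weeks old. Of the 3 Spo11-/- arrays, 1 held spermatogonia, 1 pre-leptotene cells and 1 leptotene/zygotene cells. Each was made from cells combined over 2 collections, from 4 and 3 mice. Their strain, the deleted piece of Spo11 and the place of the probe set relative to it are not given in the sources used here. Whether the 3 Spo11-/- arrays share mice is not given either. A difference of strain or of shared mice could not be told apart from one of genotype. The 20 wild-type arrays came from F1 males of the cross C57BL6xDBA2J. They held spermatogonia (4 arrays), pre-leptotene (3), leptotene/zygotene (3), early pachytene (1), mid-pachytene (2), late pachytene (1) and diplotene cells (2), and haploid round spermatids (4). The labels call the wild-type replicates biological and do not say whether arrays share mice, so p-values cover only how far arrays lay from each other. Precision is limited by how few arrays a fraction had.

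In mice, meiosis begins with DNA replication in pre-leptotene, and breaks are made in leptotene and zygotene. SPO11 is the catalytic subunit, related to type II topoisomerases, that cuts the DNA. MEI4 and REC114 are partners in the complex that loads SPO11 on chromosome axes, and MEI1 is required for break formation. PRDM9 is a histone methyltransferase whose zinc fingers bind DNA and so set where breaks fall. Breaks are then repaired by strand exchange during pachytene, and at diplotene the paired chromosomes begin to come apart. Round spermatids are the haploid cells that follow.

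Promoter windows were sought for all 5 genes, and the sources used here held none for Spo11. RefSeq (GRCm38.p6) gave 5 windows for the other 4 genes (Prdm9, Mei1, Mei4 and Rec114), each from 250 bases before to 50 bases from the annotated start, written 5′ to 3′ on the strand of the gene. Capitals mark matches to the motifs searched. The windows are Prdm9 at chr17:15564305-15564604 (minus strand), Mei1 at chr15:82082226-82082525 (plus strand), Mei4 at chr9:81863420-81863719 (plus strand) and Rec114 at chr9:58741510-58741809 (minus strand).
Prdm9: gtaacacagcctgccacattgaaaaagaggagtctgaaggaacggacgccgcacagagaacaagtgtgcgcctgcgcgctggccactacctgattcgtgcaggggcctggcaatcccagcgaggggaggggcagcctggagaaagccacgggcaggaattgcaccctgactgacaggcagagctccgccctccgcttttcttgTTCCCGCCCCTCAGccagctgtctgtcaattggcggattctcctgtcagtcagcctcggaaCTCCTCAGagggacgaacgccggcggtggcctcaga
Mei1: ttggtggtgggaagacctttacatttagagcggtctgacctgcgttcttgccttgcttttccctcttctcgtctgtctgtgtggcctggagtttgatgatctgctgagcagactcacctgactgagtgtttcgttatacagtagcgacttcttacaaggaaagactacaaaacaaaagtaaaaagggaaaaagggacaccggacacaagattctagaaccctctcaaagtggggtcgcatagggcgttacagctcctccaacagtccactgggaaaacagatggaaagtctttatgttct
Mei4: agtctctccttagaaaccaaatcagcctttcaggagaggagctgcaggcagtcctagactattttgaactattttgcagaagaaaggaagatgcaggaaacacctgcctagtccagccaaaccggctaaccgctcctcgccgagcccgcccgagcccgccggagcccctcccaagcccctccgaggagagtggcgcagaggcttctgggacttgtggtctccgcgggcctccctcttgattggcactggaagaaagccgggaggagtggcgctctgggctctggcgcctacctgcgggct
Rec114: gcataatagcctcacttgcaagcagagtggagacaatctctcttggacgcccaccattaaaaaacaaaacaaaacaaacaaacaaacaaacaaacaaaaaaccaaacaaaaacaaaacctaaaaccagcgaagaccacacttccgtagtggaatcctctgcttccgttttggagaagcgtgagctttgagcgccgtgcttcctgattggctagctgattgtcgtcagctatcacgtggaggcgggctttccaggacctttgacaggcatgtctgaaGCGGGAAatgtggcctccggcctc
The motifs, searched on both strands, were CNCCTCAG, known for STRA8, the factor that turns on meiotic entry genes; TTCCCGC or TTGGCGC for E2F factors; TAACTG (or CAACTG), and likewise TAACGG (or CAACGG), for MYB factors; and TGACGTCA for CREB and CREM. Of 32851 promoter windows of the same length, 7.94% held the STRA8 motif, 6.81% the E2F motif, 28.3% the MYB motif and 1.79% the CREB motif. The Prdm9 window held the STRA8 motif as CCCCTCAG at bases -41 to -34 and as CTCCTCAG at bases 14 to 21, counted from the start as 0. It also held the E2F motif TTCCCGC at -47 to -41, which shares 1 base with the first STRA8 match. Another Prdm9 start (chr17:15563282-15563581, minus strand) had 0 matches. Rec114 had the E2F motif, on the opposite strand, at bases 26 to 32. The Mei1 and Mei4 windows had 0 matches. A match of letters describes the window and shows no binding, and the absence of one says only that these letters are not there.

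Levels are given as GCRMA intensity per array and as mean log2(intensity + 1) ± SD, and changes as log2 differences ± SE from limma. A change was called where the Benjamini-Hochberg adjusted p over all probe sets tested was below 0.05 and the log2 change at least 1. Adding 1 before the log understates changes of dim probe sets. A group with every array below log2 4 was taken as not above background, and a change against it is a bound. Levels of different probe sets are not set against each other. In RNA of sorted cells, fewer cells of a type and less RNA per cell cannot be told apart.

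Markers of other cell types were present in several libraries. The median intensity was 10.6 to 12.6 in every array, with 44.2% to 47.3% of probe sets at or above log2 4. The summed intensity of 16 spermatid markers was 51328 to 230638 in wild-type spermatogonia, beside 124893 to 168044 in round spermatids. In the Spo11-/- arrays that sum was 129 to 160, with 1 to 3 of the 16 markers at or above log2 4. The Spo11-/- pre-leptotene array stood apart with a summed intensity of 21074.5 over 8 leukocyte markers, against 52.6 to 764 in wild-type pre-leptotene arrays and 999 to 2860 in wild-type spermatogonia. All 8 markers were at or above log2 4 in it, against 0 to 7 in wild-type pre-leptotene arrays and 6 to 8 in wild-type spermatogonia. Stromal markers (8) summed to 4463 in it, against 596 to 1868 in wild-type pre-leptotene arrays and 1128 to 16229 in wild-type spermatogonia. In the 3 Spo11-/- arrays 8 Sertoli cell markers summed to 3130 to 10664 and 4 Leydig cell markers to 59.7 to 83.0, against 2259 to 7537 and 38.4 to 282 in the wild-type arrays of the same fractions. Spermatogonial markers were at or above log2 4 for 10 or 11 of 11 in those Spo11-/- arrays and for 11 of 11 in the wild-type ones, but 3 of the 11 were called lower in Spo11-/- and 0 higher (median change -0.56), beside 7.13% of all probe sets called lower and 2.17% higher. Lin28a, an RNA-binding protein, was at 5.66, 5.08 and 8.66 in Spo11-/- spermatogonia, pre-leptotene and leptotene/zygotene cells, against wild-type means of 9.20, 9.61 and 10.49. It fell by 3.31 ± 0.66 (limma, adjusted p = 0.00735), Gfra1, a receptor subunit for GDNF, by 2.48 ± 0.39 (adjusted p = 0.00202) and Id4, a transcriptional regulator, by 2.39 ± 0.45 (adjusted p = 0.00502). Gfra1 was below log2 4 in Spo11-/- spermatogonia (3.62) and pre-leptotene cells (3.58), so the size of its fall is not exact. Without the Spo11-/- pre-leptotene array 2 of the 11 were called lower, and Lin28a was not (adjusted p = 0.0537). The part of these markers in the Spo11 and Prdm9 differences was not tested. Results that rest on the Spo11-/- pre-leptotene array are given with and without it.

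Spo11 was lower in the Spo11-/- arrays, and its level in wild-type cells was highest in late prophase, after the stages at which breaks are made. This level is that of 1 probe set, so forms of the Spo11 transcript were not told apart. The Spo11 probe set had an intensity of 18.7 in Spo11-/- spermatogonia, against 23.2, 103, 52.6 and 102 in wild-type spermatogonia. In pre-leptotene cells it had 26.9 in Spo11-/- and 23.4, 129 and 74.2 in wild type. In leptotene/zygotene cells it had 36.0 in Spo11-/- and 170.5, 424 and 494 in wild type. The Spo11-/- array lay below every wild-type array in spermatogonia and in leptotene/zygotene, which 24.5% and 31.3% of all 20412 probe sets tested also did. In pre-leptotene it lay above 1 of the 3 wild-type arrays. None of the Spo11-/- arrays was below log2 4.

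Across the 3 fractions together, Spo11 fell by 1.97 ± 0.59 on the log2 scale in Spo11-/- relative to wild type (limma, adjusted p = 0.0472, 3 against 10 arrays). That fit takes the 3 Spo11-/- arrays as independent, and in it 2.17% of all probe sets were called higher and 7.13% lower. After quantile normalization the split of all calls was 631 higher and 1262 lower, beside 443 and 1456. The call ended under several alternatives. Without the Spo11-/- pre-leptotene array the change was -2.37 (adjusted p = 0.0649), and without the leptotene/zygotene cells of both genotypes it was -1.40 (adjusted p = 0.301). It was kept without wild-type spermatogonia array 1 or pre-leptotene array 1, and ended without any other single array (adjusted p = 0.0537 to 0.268). Within leptotene/zygotene alone the change was -3.16 ± 1.02 and did not pass (adjusted p = 0.155, spread taken from the wild-type arrays).

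Markers of later stages moved with this difference. The median log2 of 14 late prophase markers was 4.83 to 5.56 in the 3 Spo11-/- arrays and 7.38 to 10.70 in the 10 wild-type arrays of the same fractions. Their summed intensity was 2953 to 3845 in Spo11-/- and 4670 to 46627 in wild type, with 8 or 9 of 14 at or above log2 4 in Spo11-/- and 13 or 14 in wild type. The lactate dehydrogenase gene Ldhc, which is expressed from pachytene on, was at 2.70 to 3.03 in Spo11-/- arrays, below background, as were Pgk2, Adam2, Adam3 and Spata16. Of these 14 markers 7 were called lower and 0 higher (median change -2.15), and of 16 spermatid markers 15 were called lower and 0 higher (median -5.28), beside a median of 0.01 over all probe sets. Without the Spo11-/- pre-leptotene array 7 of 14 (median -2.13) and 15 of 16 (median -5.79) were called lower and 0 higher. Only 1 to 3 of the 16 spermatid markers were at or above log2 4 in a Spo11-/- array, so the size of their medians is not exact. The part of the late prophase and spermatid markers in the Spo11 difference was not tested.

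**Figure D1:**
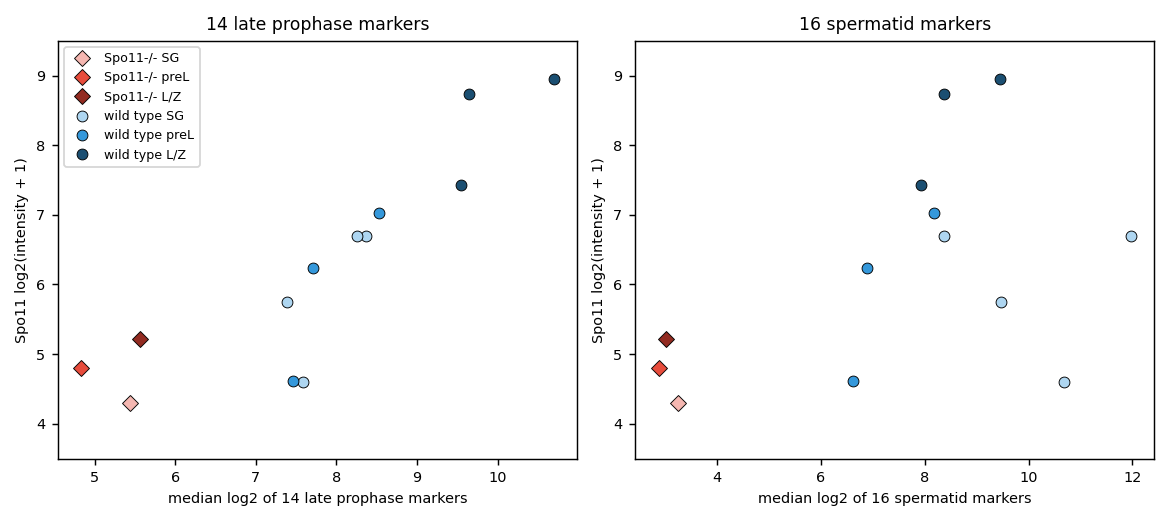
Spo11 level (log2(intensity + 1), vertical axis) against the median log2 of 14 late prophase markers (left) and of 16 spermatid markers (right) in each array of spermatogonia (SG), pre-leptotene (preL) and leptotene/zygotene (L/Z) cells; diamonds are Spo11-/- arrays and circles wild-type arrays. The 3 Spo11-/- arrays have late prophase medians of 4.83 to 5.56, all below those of the wild-type arrays, which start at 7.38.

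In wild-type cells the Spo11 intensities were 23.2 to 103 in spermatogonia, 23.4 to 129 in pre-leptotene and 170.5 to 494 in leptotene/zygotene. They were 1036 in early pachytene, 1774 and 6926 in mid-pachytene, 2472 in late pachytene, 2403 and 8173 in diplotene, and 1138, 2347, 2035 and 1501 in round spermatids. No array of pachytene or later overlapped any array of leptotene/zygotene or earlier. Ordered by mean log2, diplotene was highest (12.11 ± 1.25), then mid-pachytene (11.78 ± 1.39), late pachytene (11.27), round spermatids (10.72 ± 0.47), early pachytene (10.02), leptotene/zygotene (8.37 ± 0.83), pre-leptotene (5.96 ± 1.23) and spermatogonia (5.93 ± 1.0). The ranges overlapped between diplotene and mid-pachytene, between mid-pachytene and late pachytene, and between pre-leptotene and spermatogonia.

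The step that passed the test was that into mid-pachytene. Spo11 rose by 3.41 ± 0.80 in mid-pachytene relative to leptotene/zygotene (limma, adjusted p = 0.00580, 2 against 3 arrays). This step also held 4 of the 6 probe sets past the test, beside 11.7% of all 22375 probe sets called higher and 13.1% called lower. Without mid-pachytene array 2, where Spo11 was brightest, the change was 2.43 and did not pass (adjusted p = 0.133).

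From pre-leptotene to leptotene/zygotene, when breaks form, the groups did not overlap, and Spo11 differed by 2.41 ± 0.72 without passing (limma, adjusted p = 0.110, 3 against 3 arrays). With the replicate number as a block, the same difference passed (limma, adjusted p = 0.00522). Deviations of same-numbered arrays correlated at 0.62, 0.22 and 0.40 in this pair of fractions. The block was an offset per number shared by all fractions, also where numbers did not go together (-0.18 and -0.09 between leptotene/zygotene and spermatogonia for numbers 2 and 3). The labels do not say what a number marks. Of the 6 probe sets 0 passed in the fit without the block and 2, Spo11 and Prdm9, had an unadjusted p below 0.05. Of all 22375 probe sets 1.65% were called higher and 0.107% lower, and 2389 had an unadjusted p below 0.05. Late prophase markers moved in the same comparison, with 5 of 14 called higher, a median change of 1.90, and a summed intensity of 18121 to 46627 in leptotene/zygotene against 4670 to 10732 in pre-leptotene. Within both fractions the arrays had the same order for Spo11 as for the summed late prophase markers, with 3 arrays in each. In wild-type spermatogonia they did not. Array 1 had the lowest Spo11 intensity there (23.2) and a marker sum of 16209, above the 9605 and 12718 of arrays 3 and 4. How many probe sets keep such an order was not counted. The part of these markers in the Spo11 difference was not tested.

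Against spermatogonia, leptotene/zygotene cells differed by 2.44 ± 0.67 in Spo11 (limma, adjusted p = 0.0760), and 0 of 6 probe sets passed, with 2 at an unadjusted p below 0.05, beside 0.813% of all probe sets called higher and 0.737% lower. Of all 22375 probe sets 3132 had an unadjusted p below 0.05 there. Between pre-leptotene and spermatogonia 0 of 6 passed in limma, 0 had an unadjusted p below 0.05, and Spo11 differed by 0.02 ± 0.67. In that pair of fractions 0.0447% of all probe sets were called higher and 0.197% lower (10 and 44 probe sets, or 7 and 17 after quantile normalization).

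After mid-pachytene no Spo11 difference passed the test. Diplotene differed from mid-pachytene by 0.34 ± 0.88 (limma, adjusted p = 0.882). Round spermatids differed from diplotene by -1.39 ± 0.76 (adjusted p = 0.223), although the 2 groups of arrays did not overlap. The Spo11 level in round spermatids was still above every leptotene/zygotene array.

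**Figure D2:**
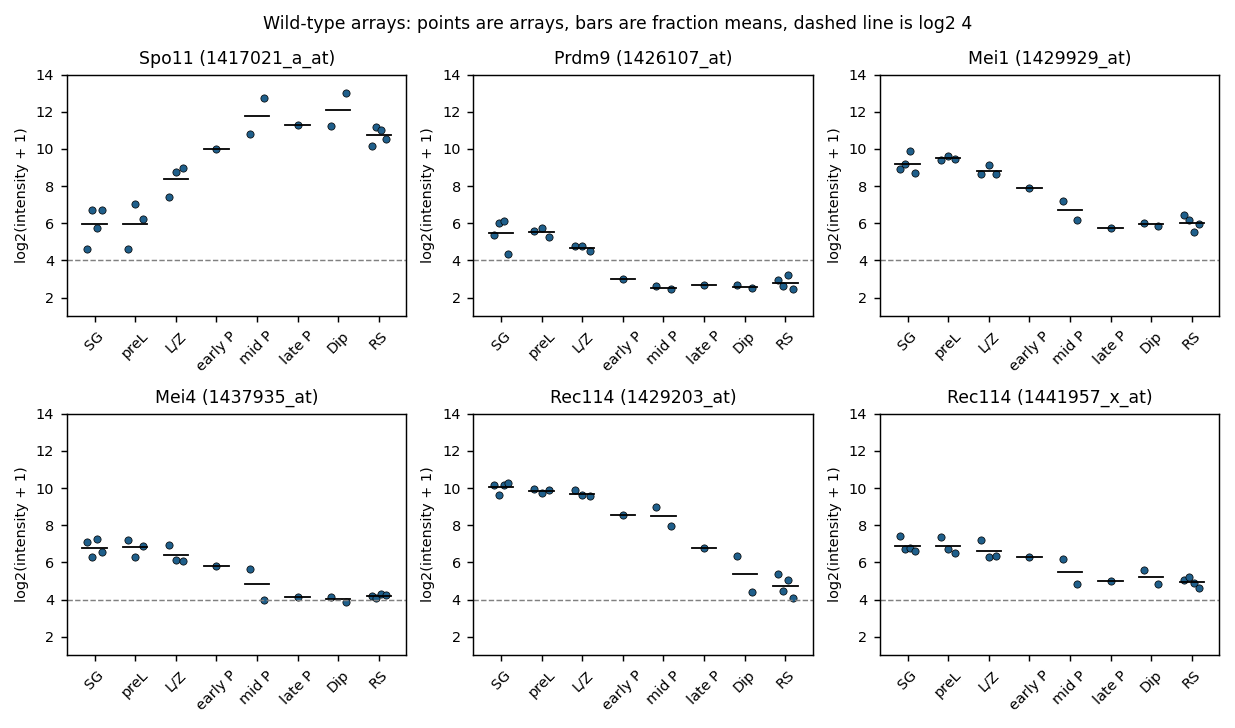
Level of each probe set (log2(intensity + 1)) in every wild-type array, by fraction in order of development: spermatogonia (SG), pre-leptotene (preL), leptotene/zygotene (L/Z), early, mid and late pachytene (P), diplotene (Dip) and round spermatids (RS). Points are arrays, bars are fraction means and the dashed line is log2 4; Spo11 is highest at diplotene (12.11), while Prdm9 lies below the line in every array from early pachytene on.

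Prdm9 had the opposite course and was above background in the early fractions alone. Its intensities were 40.6, 64.5, 67.4 and 19.2 in spermatogonia, 46.8, 53.2 and 37.9 in pre-leptotene, and 26.3, 26.0 and 21.4 in leptotene/zygotene. They were 6.99 in early pachytene, 5.06 and 4.40 in mid-pachytene, 5.34 in late pachytene, 5.27 and 4.80 in diplotene, and 4.43 to 8.23 in round spermatids. Every array from early pachytene on was below log2 4, and every earlier array was above it. The mean log2 was 5.54 ± 0.24 in pre-leptotene, 5.46 ± 0.82 in spermatogonia and 4.67 ± 0.16 in leptotene/zygotene, and the neighbours in that order overlapped. The array of lowest Prdm9 among these, spermatogonia array 4, was below every leptotene/zygotene array.

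Prdm9 fell in mid-pachytene relative to leptotene/zygotene by at least 0.67 on the log2 scale, a bound because mid-pachytene was not above background (2.52 ± 0.12 against 4.67 ± 0.16, limma, adjusted p = 0.00159). With a pseudocount of 16 in place of 1 its difference of -0.97 was under the minimum change and was not called (adjusted p = 0.0176). Between leptotene/zygotene and pre-leptotene the 3 arrays of each did not overlap, and the difference of -0.87 ± 0.37 did not pass (limma, adjusted p = 0.367). No level can be ordered among the later fractions, all of which were below background. This probe set was dim throughout, with at most 67.4 in wild-type arrays.

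Mei1 was highest before pachytene and fell in mid-pachytene. Its intensities were 488, 575, 946 and 408 in spermatogonia, 667, 797 and 697 in pre-leptotene, and 397, 559 and 393 in leptotene/zygotene. They were 239 in early pachytene, 145 and 72.1 in mid-pachytene, 51.8 in late pachytene, 64.3 and 56.4 in diplotene, and 45.9 to 85.6 in round spermatids. Mid-pachytene arrays lay below all leptotene/zygotene arrays, and Mei1 fell by 2.10 ± 0.37 on the log2 scale (6.69 ± 0.71 against 8.80 ± 0.29, limma, adjusted p = 0.000925). Mei1 stayed above log2 4 in every array. By mean the order was pre-leptotene, spermatogonia, leptotene/zygotene, early pachytene, mid-pachytene, round spermatids, diplotene and late pachytene. Neighbours overlapped among the first 3, and between mid-pachytene, round spermatids and diplotene. Its next steps, -0.76 ± 0.41 in diplotene relative to mid-pachytene (limma, adjusted p = 0.236) and 0.09 ± 0.35 in round spermatids relative to diplotene (adjusted p = 0.926), did not pass.

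Mei4 was close to background in array 2 of mid-pachytene and in every array from late pachytene on. Array 1 of mid-pachytene lay near early pachytene, and array 2 of mid-pachytene and of diplotene lay below log2 4. Its intensities were 134, 76.4, 150.4 and 94.6 in spermatogonia, 148, 78.8 and 118 in pre-leptotene, and 124, 69.6 and 67.3 in leptotene/zygotene. They were 55.9 in early pachytene, 50.1 and 14.5 in mid-pachytene, 16.8 in late pachytene, 16.8 and 13.6 in diplotene, and 15.8 to 19.0 in round spermatids. The groups did not overlap between mid-pachytene and leptotene/zygotene, and Mei4 fell by 1.58 ± 0.44 (4.82 ± 1.22 against 6.40 ± 0.49, limma, adjusted p = 0.0150). By mean the order was that of Mei1 with late pachytene before diplotene. Neighbours overlapped among the first 3 fractions, and between mid-pachytene, round spermatids and late pachytene. The means of round spermatids, late pachytene and diplotene (4.21, 4.16 and 4.01) lay near log2 4 and carry little order. That fall rested on mid-pachytene array 2: without it the change was -0.72 (adjusted p = 0.357), and without leptotene/zygotene array 1 the change of -1.30 also missed the threshold (adjusted p = 0.0627).

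Rec114 passed the test into diplotene and not into mid-pachytene, and a difference of its course from those of Mei1 and Mei4 was not tested. With 1429203_at its intensities were 1146, 803, 1169 and 1227 in spermatogonia, 981, 839 and 968 in pre-leptotene, and 947, 786 and 776 in leptotene/zygotene. They were 376 in early pachytene, 507 and 249 in mid-pachytene, 109 in late pachytene, 81.2 and 20.3 in diplotene, and 39.9, 21.1, 31.8 and 16.2 in round spermatids. In mid-pachytene the arrays lay below those of leptotene/zygotene, and the difference of -1.23 ± 0.48 did not pass (limma, adjusted p = 0.0696), although it did without mid-pachytene array 1 (-1.74, adjusted p = 0.0438). By mean the order was spermatogonia, pre-leptotene, leptotene/zygotene, early pachytene, mid-pachytene, late pachytene, diplotene and round spermatids. Neighbours overlapped among the first 3, between early and mid-pachytene, and between diplotene and round spermatids. In diplotene relative to mid-pachytene Rec114 fell by 3.09 ± 0.53 (5.39 ± 1.38 against 8.48 ± 0.72, limma, adjusted p = 0.000829), the only 1 of the 6 probe sets past the test there, beside 5.86% of all probe sets called higher and 11.6% lower. Fitted on the 4 arrays of these fractions alone, it did not pass (adjusted p = 0.0907), and neither did any other probe set on the array. Spermatogonial markers moved in the same steps. The summed intensity of 11 of them was 27839 to 34740 in leptotene/zygotene, 17545 and 16141 in mid-pachytene, and 3671 and 5250 in diplotene. Among them Id4 rose into mid-pachytene, by 2.66 ± 0.65 (limma, adjusted p = 0.00701). The part of these markers in the falls of Prdm9, Mei1, Mei4 and Rec114 was not tested.

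The other Rec114 probe set, 1441957_x_at, followed a similar course with a smaller span. It had 174, 105, 109 and 98.5 in spermatogonia, 91.5 to 164 in pre-leptotene, 76.8 to 146 in leptotene/zygotene, 77.6 in early pachytene, 71.3 and 27.3 in mid-pachytene, 30.9 in late pachytene, 46.6 and 27.8 in diplotene, and 23.7 to 36.3 in round spermatids. Its fraction means spanned 1.95 log2 units, and those of 1429203_at 5.33. Its step into mid-pachytene was -1.11 ± 0.42 (limma, adjusted p = 0.0621, and -1.78 with adjusted p = 0.0143 without mid-pachytene array 1), and into diplotene -0.29 ± 0.46 (adjusted p = 0.766). Only 1429203_at passed into diplotene, and whether the probe sets differ was not tested. In round spermatids relative to diplotene 0 of the 6 probe sets passed in limma, with 0 at an unadjusted p below 0.05, beside 9.73% of all probe sets called higher and 11.8% lower.

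**Figure D3:**
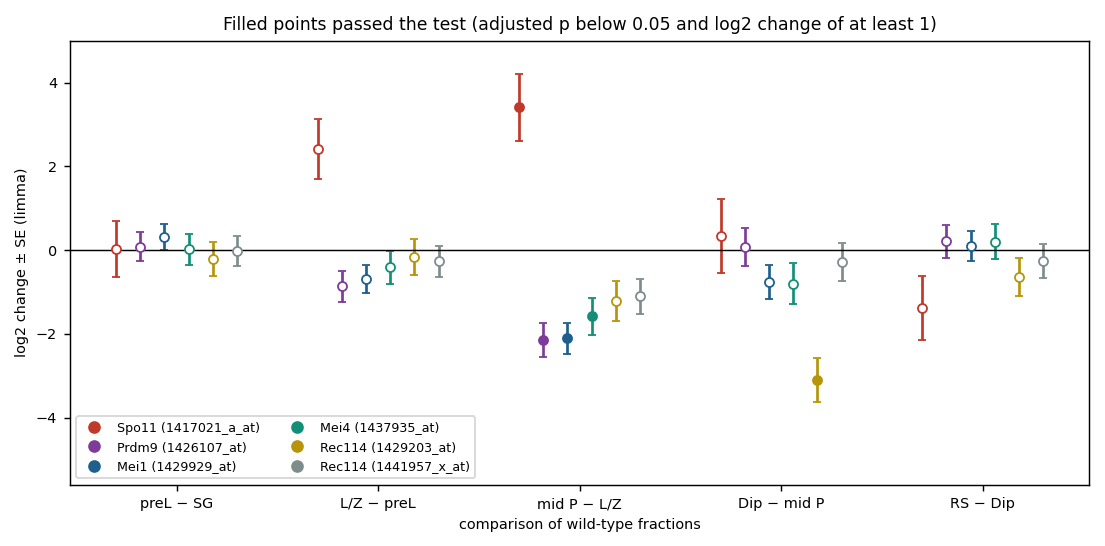
Log2 change ± SE (limma) of the 6 probe sets in each comparison of adjacent wild-type fractions with replicates; the later fraction is the first named, and filled points passed the test. In mid-pachytene relative to leptotene/zygotene Spo11 is higher by 3.41 while Prdm9, Mei1 and Mei4 are filled below the zero line, and Rec114 (1429203_at) is filled at -3.09 in diplotene relative to mid-pachytene.

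Set over the whole span, diplotene against leptotene/zygotene, all 6 probe sets passed. This comparison was chosen after the values had been seen, and 23.2% of all probe sets were called higher and 27.7% lower in it. Spo11 rose by 3.75 ± 0.80 (limma, adjusted p = 0.000875). Mei1 fell by 2.86 ± 0.37 (adjusted p = 9.46e-06), Mei4 by 2.39 ± 0.44 (adjusted p = 0.000256), and Rec114 by 4.32 ± 0.48 with 1429203_at (adjusted p = 2.14e-06) and 1.39 ± 0.42 with 1441957_x_at (adjusted p = 0.0100). The last of these ended without diplotene array 2 (-1.03, adjusted p = 0.129) and after quantile normalization (-0.95, adjusted p = 0.0798). Prdm9 fell by at least 0.67 (adjusted p = 0.000459). With a pseudocount of 16 its difference of -0.95 was under the minimum change of 1 and was not called (adjusted p = 0.00984). The 2 groups of arrays did not overlap for any of the 6. The share of all probe sets without overlap was not counted, and 13240 of all 22375 had an unadjusted p below 0.05 in limma.

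Over the 8 fraction means, which come from the same 20 arrays, Mei1 and Mei4 had the most alike course among the pairs (Pearson r = 0.995), and each had r of 0.99 with 1441957_x_at of Rec114. The Rec114 probe sets had r of 0.91 with each other. Spo11 ran against them, with r of -0.92 with Mei1 and with Mei4, and -0.76 with 1429203_at. These are descriptions over 8 points that share arrays and carry no test. For Mei4 the means of late pachytene, diplotene and round spermatids lay near background and carry little order. No r is given for Prdm9 with the other 4 genes, since 5 of its 8 fraction means were below background and have no order.

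Genes of most alike course were taken from 10740 genes whose fraction means spanned at least 1 log2 unit, by Pearson r over the same 8 means. For Spo11 they were Tmem30c (r = 0.998), Uggt2, Cdc42ep3, Mgat4d and Prss45, and 389 genes had r of at least 0.95. Tmem30c averaged 3.69 in spermatogonia, 6.70 in leptotene/zygotene, 11.48 in diplotene and 9.80 in round spermatids. For Prdm9 they were Marchf7, Fbln2, Zbtb12, Zfp583 and Dlg3, a list that rests in part on the 5 Prdm9 means below background. For Mei1 they were Nbeal2 (r = 0.999), Slc25a30, Sh3bp2, Nrcam and Arhgef26, with 733. For Mei4 they were Apaf1 (r = 0.999), Arhgef26, Ogfrl1, Slc25a30 and Atg4a, with 886, and Slc25a30 and Arhgef26 stood in both lists. For Rec114 (1429203_at) they were Plod2 (r = 0.998), Adh5, Pmm1, Hif1a and Acvr2b, with 1454. None of the 5 genes was among the nearest 5 of another, with the same limit for Prdm9.

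Among the genes other than Spo11, none passed the test between Spo11-/- and wild type, and Prdm9 was above the wild-type arrays in every fraction. Prdm9 had 139.5 in Spo11-/- spermatogonia, against 40.6, 64.5, 67.4 and 19.2 in wild type. It had 57.0 in Spo11-/- pre-leptotene cells, against 46.8, 53.2 and 37.9 in wild type. It had 40.5 in Spo11-/- leptotene/zygotene cells, against 26.3, 26.0 and 21.4 in wild type. Prdm9 was thus above all wild-type arrays in 3 of 3 fractions, as were 6.93% of all probe sets. The change over the 3 fractions was 0.92 ± 0.35 (limma, adjusted p = 0.113), and 1.20 without the Spo11-/- pre-leptotene array (adjusted p = 0.102).

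Mei1 had 1218 in Spo11-/- spermatogonia and 408 to 946 in wild type, 657 in Spo11-/- pre-leptotene cells and 667 to 797 in wild type, and 707 in Spo11-/- leptotene/zygotene cells and 393 to 559 in wild type. It was above all wild-type arrays in 2 fractions and just below all of them in pre-leptotene, and the change of 0.55 ± 0.27 did not pass (limma, adjusted p = 0.214, and 0.89 with adjusted p = 0.0943 without the Spo11-/- pre-leptotene array). Mei4 had 108, 131 and 168 in the Spo11-/- spermatogonia, pre-leptotene and leptotene/zygotene arrays. In wild type it had 76.4 to 150.4, 78.8 to 148 and 67.3 to 124 in those fractions, so it was above all wild-type arrays in leptotene/zygotene only. Its change was 0.39 ± 0.30 (limma, adjusted p = 0.424), and 0.47 without the Spo11-/- pre-leptotene array.

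Rec114 (1429203_at) had 1369 in Spo11-/- spermatogonia and 803 to 1227 in wild type, 906 in Spo11-/- pre-leptotene cells and 839 to 981 in wild type, and 1019.8 in Spo11-/- leptotene/zygotene cells and 776 to 947 in wild type. Its change was 0.21 ± 0.18 (limma, adjusted p = 0.482), and that of 1441957_x_at was 0.21 ± 0.27 (adjusted p = 0.645). Without the Spo11-/- pre-leptotene array they were 0.32 and 0.40 and did not pass. Of the 6 probe sets, 4 were above every wild-type array in spermatogonia, 1 in pre-leptotene and 4 in leptotene/zygotene. Over all probe sets those shares were 26.6%, 28.8% and 28.9%, and 38.4% lay below every wild-type array in pre-leptotene, as Mei1 did. The effect of genotype was not shown to differ between fractions for any of the 6 (interaction terms in limma, 0 called and 0 with an unadjusted p below 0.05).

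**Figure D4:**
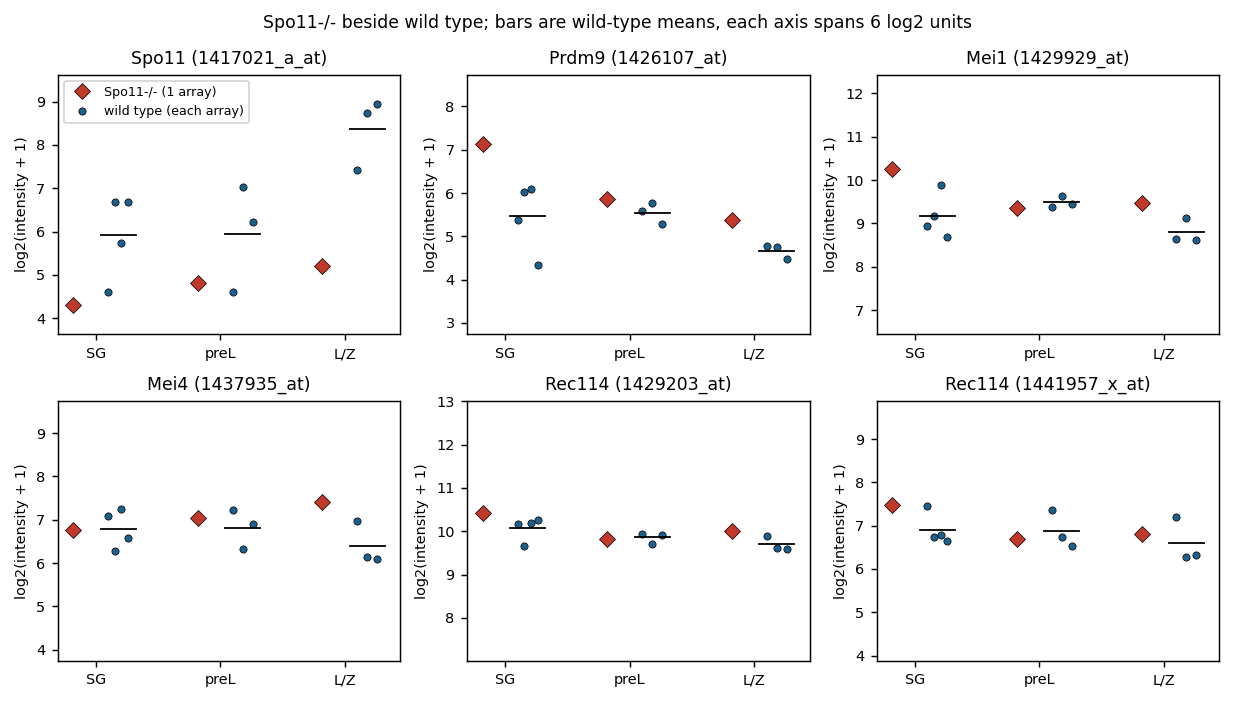
Level of each probe set (log2(intensity + 1)) in Spo11-/- arrays (diamonds, 1 per fraction) to the left of wild-type arrays (circles, with the mean as a bar) in spermatogonia (SG), pre-leptotene (preL) and leptotene/zygotene (L/Z). Spo11 is at 5.21 in the Spo11-/- leptotene/zygotene array, against 7.42 to 8.95 in wild type, while Prdm9 lies above every wild-type array in all 3 fractions.

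Among other genes of the break machinery, Atm and Trip13 fell in mid-pachytene. Of 8 listed genes 6 were on the array with a symbol of their own and 5 passed the filter on dim values; Ankrd31, a partner of REC114, was below log2 4 in all arrays of the groups compared. In mid-pachytene relative to leptotene/zygotene 2 of 5 fell and 0 rose (median -0.27, beside -0.09 over all probe sets), where 13.1% of all probe sets were called lower and 11.7% higher. Atm, the kinase that limits break number, fell by 1.84 ± 0.52 (8.70 ± 0.58 against 10.54 ± 0.22, limma, adjusted p = 0.0155), and Trip13, the ATPase that remodels HORMA proteins on axes, fell by 1.60 ± 0.41 (adjusted p = 0.0101). Both fell again in diplotene relative to mid-pachytene, with changes of -3.63 ± 0.57 for Atm and -2.07 ± 0.45 for Trip13. Hormad1, an axis protein needed for break formation, was at 12.21 ± 1.46 in mid-pachytene and 10.78 ± 0.77 in leptotene/zygotene, a difference of 1.43 ± 0.64 that did not pass (limma, adjusted p = 0.109). It is named after its values were seen. Cdk2, a cyclin-dependent kinase, fell by 2.56 ± 0.47 in round spermatids relative to diplotene (adjusted p = 0.00110). Between Spo11-/- and wild type 0 of 5 passed in limma, with 1 at an unadjusted p below 0.05, which was Atm (0.62 ± 0.20, adjusted p = 0.0682). Of all 20412 probe sets 5619 had an unadjusted p below 0.05 in that fit, with 7.13% called lower and 2.17% higher. Without the Spo11-/- pre-leptotene array 0 of 5 passed as well, with 1 at an unadjusted p below 0.05.

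Of the 8 genes listed for a link to PRDM9, 7 were on the array. Morc2b, among these, is not taken here as a partner or reader of PRDM9. Hells, a chromatin remodeller that acts with PRDM9, fell by 1.77 ± 0.29 in mid-pachytene relative to leptotene/zygotene (11.40 ± 0.34 against 13.17 ± 0.24, limma, adjusted p = 0.000595) and fell by 2.43 ± 0.32 in diplotene relative to mid-pachytene (adjusted p = 0.000136). Morc2b, of the MORC family of ATPases, rose by 2.85 ± 0.88 in mid-pachytene relative to leptotene/zygotene (adjusted p = 0.0245) and by 3.38 ± 0.78 in leptotene/zygotene relative to pre-leptotene (adjusted p = 0.0399). The other 5 did not pass in the step into mid-pachytene, where 13.1% of all probe sets were called lower and 11.7% higher. In Spo11-/- Morc2b was not above background in any array (2.47 to 2.58). Its change relative to wild type was at most -2.09 in spermatogonia, -1.19 in pre-leptotene and -4.57 in leptotene/zygotene, as bounds (limma over the 3 fractions, adjusted p = 0.00748). Morc2b was the 1 gene of 6 tested that passed, also without the Spo11-/- pre-leptotene array (adjusted p = 0.0129). In the fit with all 3 Spo11-/- arrays 7.13% of all probe sets were called lower and 2.17% higher. The late prophase markers given above moved with Morc2b, and their part was not tested.

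Of 20 listed genes that process and repair the breaks, 17 were tested. In mid-pachytene relative to leptotene/zygotene 3 fell, 3 rose and 11 did not pass (median -0.46), beside 13.1% of all probe sets called lower and 11.7% higher. Dmc1, the meiotic strand exchange recombinase, fell by 2.36 ± 0.40 (6.60 ± 0.41 against 8.95 ± 0.35, limma, adjusted p = 0.000734) and was below background at diplotene, where it fell by at least 2.60 relative to mid-pachytene. Exo1, a nuclease, fell by 1.55 ± 0.47 (adjusted p = 0.0218). Hsf2bp, which binds BRCA2, rose by 1.55 ± 0.31 (adjusted p = 0.00222) and Psmc3ip, a partner of DMC1, by 1.50 ± 0.28 (adjusted p = 0.00151). In Spo11-/- relative to wild type 2 of 17 fell and 0 rose (median 0.00), beside 7.13% of all probe sets called lower and 2.17% higher. Swi5 fell by 1.69 ± 0.16 (limma, adjusted p = 6.05e-05), at 10.39, 10.06 and 10.72 in the Spo11-/- arrays of spermatogonia, pre-leptotene and leptotene/zygotene, against wild-type means of 12.03, 11.97 and 12.25. Brme1, a partner of HSF2BP that the annotation lists as 4930432K21Rik, fell by 1.33 ± 0.26 (adjusted p = 0.00621). The same 2 genes passed without the Spo11-/- pre-leptotene array, at -1.59 and -1.20. The late prophase and spermatid markers given above were lower in the same comparison, and their part was not tested.

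Of 10 genes of meiotic entry, 9 were tested. In mid-pachytene relative to leptotene/zygotene 1 fell, Tex15 (-1.54 ± 0.28, limma, adjusted p = 0.00112), and 0 rose (median -0.29), beside the same 13.1% and 11.7%. In diplotene relative to mid-pachytene 4 fell and 0 rose, beside 11.6% of all probe sets called lower and 5.86% higher. Stra8, the retinoic acid target that starts the meiotic programme, fell by 4.02 ± 1.03 (limma, adjusted p = 0.0127), Dazl, an RNA-binding protein of germ cells, by 3.10 ± 0.57 (adjusted p = 0.00146), and Sycp1, of the synaptonemal complex, by 1.17 ± 0.37 (adjusted p = 0.0377). Between Spo11-/- and wild type 0 of 9 passed in limma, with 5 at an unadjusted p below 0.05 and a median of 0.49, beside 0.01 over all probe sets. Of all 20412 probe sets 5619 had an unadjusted p below 0.05 in that fit, with 7.13% called lower and 2.17% higher. Without the Spo11-/- pre-leptotene array 1 passed, Smc1b, a meiotic cohesin subunit (1.03 ± 0.24, adjusted p = 0.0237). Their summed intensity was 59588 to 74308 in the 3 Spo11-/- arrays and 41038 to 52615 in the 10 wild-type arrays of the same fractions, so the Spo11-/- arrays were above all of these. Its part in the Prdm9 difference was not tested.

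**Figure D5:**
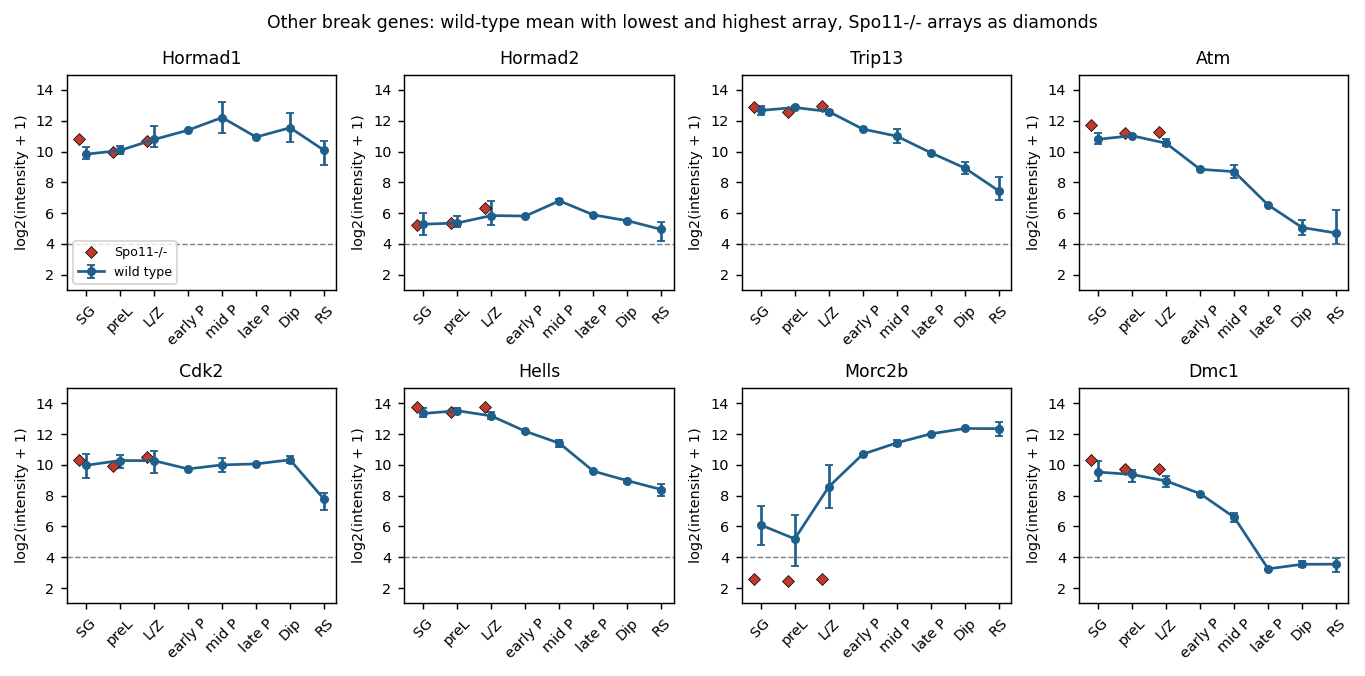
Level (log2(intensity + 1)) by fraction of 8 other genes, from the lists for break machinery, for a link to PRDM9 and for break processing. Circles are wild-type means with bars to the lowest and highest array, diamonds are Spo11-/- arrays, and the dashed line is log2 4. Trip13, Atm, Hells and Dmc1 decline from leptotene/zygotene on, while Morc2b is at 12.36 in diplotene and at 2.47 to 2.58 in the Spo11-/- arrays.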

How the data were processed

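Total RNA of sorted cells was labelled from oligo-dT primers and hybridised to Affymetrix arrays, per the labels' protocols. The deposited values are intensity per probe set, summarised with GCRMA per the submitters' processing notes, whose version and settings are not given in the sources used here. GCRMA compresses dim signals toward a common low level, so small values carry little order. The values were linear (1.48 to 107451) and were taken here as log2(intensity + 1) of the deposited values. Of 45037 probe sets, 34945 had 1 symbol in the platform annotation, 932 had several and 9160 were not listed; the last groups were not used. Symbols were updated through RefSeq for 34741 probe sets. No 2 arrays held identical values, and 0 columns were left unused.

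limma 3.58.1 in R 4.3.3 was fitted with a mean per fraction over the 20 wild-type arrays, on 22375 probe sets with log2 of at least 4 in at least 2 arrays. For Spo11-/-, 13 arrays were fitted with additive effects of fraction and of genotype (20412 probe sets), which takes the Spo11-/- arrays as independent. p-values were adjusted by the Benjamini-Hochberg method over all probe sets tested. The fit was tested on simulated data with known changes. Each gene of a list was represented by its probe set of highest mean. All probe sets of the 5 genes are given, and of each other list its counts and up to 4 genes of largest change past the test, and for each gene the 5 of most alike course. Alternatives were the filter, pseudocount, normalization, array weights, trended or robust variance, 1 probe set per gene, the arrays fitted, the replicate block and leaving out each array; for the gene lists, leaving out the Spo11-/- pre-leptotene array was chosen after seeing the data. The members, the 11 gene lists (119 entries, 108 on the array) and the tests were chosen with earlier results of these data known. Arrays that share a number were compared by their residuals around each fraction's mean. The correlations were 0.60, 0.57 and 0.22 between pre-leptotene and spermatogonia and 0.62, 0.22 and 0.40 between leptotene/zygotene and pre-leptotene. A replicate block was therefore fitted as an alternative, with an offset per number shared by all fractions with numbered arrays. The labels do not say what a number marks.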

Additional observations from a re-analysis of the deposited data

Results flagged for a closer look

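Of 12 sets of 4 wild-type arrays examined (6 probe sets in spermatogonia and in round spermatids), 1 had an array far from the others. Rec114 (1429203_at) was at 803 in spermatogonia array 2 and at 1146, 1169 and 1227 in the other spermatogonia arrays. Its gap to the nearest array was 0.839 of the group's range on the log2 scale, above Dixon's critical value for 4 arrays, a limit that chance passes in about 1 of 20 sets. Without that array no Rec114 result changed its side of the threshold.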

How the results depend on the processing

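The number of arrays limits every comparison, and probe sets near background, Prdm9 and late Mei4, have compressed differences. Of the 6 probe sets, the count past the test in Spo11-/- relative to wild type was 1, and 0 to 1 with 1 array left out. It was 0 with no filter on dim values (Spo11 adjusted p = 0.103), quantile normalization (-1.81, adjusted p = 0.0532), median centring (-1.92, adjusted p = 0.0508), a pseudocount of 16 (-1.60, adjusted p = 0.0565) and without leptotene/zygotene cells of both genotypes (-1.40, adjusted p = 0.301); at an unadjusted p below 0.05 there were 0 in the last setting and 2 in each of the others. The cause was not tested. For Prdm9 array weights gave 0.93 (adjusted p = 0.0375), below the minimum change. In mid-pachytene relative to leptotene/zygotene 4 passed, and 2 to 6 with 1 array left out, the 2 being without mid-pachytene array 2, and 3 with only the arrays of the 2 fractions (Mei4 lost, adjusted p = 0.0837). In diplotene relative to mid-pachytene 1 passed, 0 with only the arrays of the 2 fractions and 1 to 2 with 1 array left out, the 2 including Mei4 without mid-pachytene array 2 (-1.66, adjusted p = 0.0277). In round spermatids relative to diplotene 0 passed and 0 to 1 with 1 array left out (Rec114 without diplotene array 2, -1.62, adjusted p = 0.0221). In leptotene/zygotene relative to spermatogonia 0 passed, 0 to 2 with 1 array left out (Spo11 and Prdm9 without spermatogonia array 4) and 1 with array weights (Spo11, 2.91, adjusted p = 0.0126). With the replicate block 1 passed in leptotene/zygotene relative to pre-leptotene (Spo11). Where same-numbered arrays were not shown to be paired, the block gave 1 in round spermatids relative to diplotene (Spo11, -1.63, adjusted p = 0.00340) and 2 in leptotene/zygotene relative to spermatogonia, where deviations of same-numbered arrays correlated at 0.66, -0.18 and -0.09. In diplotene relative to leptotene/zygotene 5 to 6 passed; the 5 lacked Prdm9 with a pseudocount of 16, and 1441957_x_at, or its test, in the other settings. No direction of a called change reversed. Rec114 passed into mid-pachytene with the block at both probe sets (-1.20 with adjusted p = 0.0234, and -1.23 with adjusted p = 0.00447), and 1429203_at also with a pseudocount of 16 or array weights. Over all probe sets, leaving out 1 array moved the count of calls from 54 to between 9 and 670 in pre-leptotene relative to spermatogonia, from 394 to between 6 and 710 in leptotene/zygotene relative to pre-leptotene, from 347 to between 48 and 1287 in leptotene/zygotene relative to spermatogonia, from 5540 to between 2045 and 5360 into mid-pachytene, from 3907 to between 1853 and 3411 into diplotene, from 4820 to between 2426 and 4825 into round spermatids, and from 1899 to between 1031 and 2066 in Spo11-/-. Other settings gave 0 to 920, 0 to 810, 17 to 1437, 3839 to 6830, 0 to 5078, 3199 to 5736 and 729 to 2547 in the same order, and 7361 to 12302 beside 11387 in diplotene relative to leptotene/zygotene. The counts of 0 came from limma fits of only the arrays of 2 fractions, with 1710, 2604 and 5493 probe sets at an unadjusted p below 0.05. Quantile normalization moved the median of all probe sets by 0.11 in diplotene relative to leptotene/zygotene.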
